A study of Mus musculus with 6 samples.

Results

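The genes described here are 10 genes of the MHC class II system, chosen by name out of the 55367 genes listed in an RNA-seq table of mouse leukemia stem cells (LSCs). They are the classical chains H2-Ab1, H2-Aa and H2-Eb1, the invariant chain Cd74, the DM chains H2-DMa, H2-DMb1 and H2-DMb2, the DO chains H2-Oa and H2-Ob, and the transactivator Ciita. They were selected on the difference between Piezo1cKO and WT LSCs in these same libraries, so that difference is described below, no p-value is given for a member, and nothing is read from counts of calls among them. All 10 had values, as did 26402 of the 55367 genes, and all 10 entered the fit of 16746 genes.

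MHC class II molecules are pairs of an alpha and a beta chain that display peptides from the endosomal pathway to CD4+ T cells. The chains are assembled on the invariant chain, whose remnant is removed from the groove with the help of DM, and DO restrains DM. Their genes carry a shared upstream element bound by the RFX, NF-Y and CREB proteins, and transcription from it depends on the coactivator CIITA, which does not bind DNA itself. In the mouse, dendritic cells, B cells and activated macrophages are the main cells that carry class II.

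The series holds 6 RNA-seq libraries, 3 of WT and 3 of Piezo1cKO LSCs, made from the bone marrow of mice with AML. WT donors were Piezo1 fl/fl littermates without Cre, and Piezo1cKO donors were Piezo1 fl/fl with Mx1-cre, a Cre driven by an interferon-inducible promoter that is active beyond blood cells. Both groups were given pIpC (poly(I:C)), itself an inducer of interferon, at 8 to 10 weeks of age. In both, lineage-negative marrow cells were transduced with an MLL-AF9-YFP retrovirus and transplanted into irradiated C57BL/6 recipients. The host supplied the cells of the animal that did not come from the graft. A sort for YFP before the first transplant is not described, so donor cells without the virus may also have been present. How many mice went into each library, and from which transplant generation, is not given in the sources used here, so p-values measure the spread between libraries, which may be technical. LSCs were sorted as YFP+ cells, the mark of the transduced donor cells, without lineage markers or Sca-1 and with c-Kit, CD34 and high CD16/32. In bulk RNA the number of cells of a type and the RNA per cell cannot be told apart.

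The values of the table are on a log2 scale that pulls each gene towards its mean over the 6 libraries, and they could be turned back into whole reads, as described under the processing. Recovered reads on genes ran from 14112093 to 15483573 per library. A normalized read count below is the number of recovered reads divided by the size factor of the library. The reads have no molecular identifiers, so limits drawn from them cover counting error only. As a check of the labels, Piezo1 had 101, 92.8 and 109 normalized reads in WT LSCs and 36.6, 56.5 and 45.8 in Piezo1cKO LSCs (log2 difference -0.29 on the deposited scale, adjusted p = 5.8e-06, limma with Benjamini-Hochberg adjustment). The counts are per gene, so a deleted exon is not seen by itself. Of the genes of the sort gate, Kit, Cd34 and Fcgr3 together had 11573 to 11796 normalized reads in WT and 14254 to 14985 in Piezo1cKO libraries. Of genes the gate excludes, Ly6a had 0.66 ± 0.572 and 11.4 ± 4.79 normalized reads and Itgam 99.5 ± 8.73 and 201 ± 18.9 (SD, n = 3) in WT and Piezo1cKO LSCs.

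Upstream sequence is shown for H2-Aa and H2-Eb1, the members with the widest ratios of recovered reads, and for the DO chains, so that the shared element can be seen. RefSeq promoter windows, from 250 bases before to 50 bases after the annotated start on GRCm38.p6, were at hand for 7 of the 10 members, in 8 windows, and not for H2-Ab1, Cd74 and Ciita. A core of the X box (GNAAC) followed on the strand of the gene by a Y box (ATTGG, the reverse complement of CCAAT) was searched with 25 to 45 bases from start to start. The letters were written down with the sequences in view. The pair was found in 5 of the 7 members, or 5 of their 8 windows. It lay in 1.66% of all 32851 windows of this length on the gene's strand and in 3.41% on either strand. ATTGG alone on either strand lay in 37.4% of windows and in 7 of the 8 members' windows. Capitals mark the X core and the Y box, in the order given.
H2-Aa: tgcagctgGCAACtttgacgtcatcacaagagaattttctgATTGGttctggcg
H2-Eb1: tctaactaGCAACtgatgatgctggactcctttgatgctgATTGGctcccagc
H2-Ob: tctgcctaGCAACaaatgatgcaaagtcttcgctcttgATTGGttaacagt
H2-Oa: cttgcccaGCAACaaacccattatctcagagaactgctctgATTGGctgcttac
These stretches lie at chr17:34287859-34287912 on the minus strand for H2-Aa, and on the plus strand at chr17:34305768-34305820 for H2-Eb1, chr17:34238810-34238860 for H2-Ob and chr17:34092295-34092348 for H2-Oa. Counted from the RefSeq start, the X core began at -81 in H2-Aa, -91 in H2-Eb1, -87 in H2-Ob and -76 in H2-Oa. From X core to Y box the distance was 33 bases in H2-Aa and H2-Oa, 32 in H2-Eb1 and 30 in H2-Ob. The window of H2-DMb1 also held the pair, 33 bases apart, and those of H2-DMa and H2-DMb2 did not hold the pair. A match is a string of letters, not a site shown to be bound.

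Among the classical chains, H2-Ab1, the beta chain of the I-A molecule (chromosome 17, 34257689 to 34269419, GRCm38), was present in WT LSCs and far higher in Piezo1cKO LSCs. It had 115, 151 and 139 normalized reads in the 3 WT libraries and 3188, 3489 and 3361 in the 3 Piezo1cKO libraries. Every Piezo1cKO library lay above every WT library by more than the spread within either group. The means were 135 ± 18.2 (SD, n = 3) and 3346 ± 151 (SD, n = 3), a ratio of 24.8. On the deposited log2 scale the means were 8.16 ± 0.09 and 11.16 ± 0.05 (SD, n = 3), a difference of 3.0.

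H2-Aa (chromosome 17, 34282744 to 34287823), the alpha chain that pairs with H2-Ab1, was close to the limit of counting in WT LSCs. Its normalized reads were 5.82, 10.1 and 7.70 in WT and 670, 573 and 599 in Piezo1cKO libraries. The means of 7.87 ± 2.14 and 614 ± 49.9 (SD, n = 3) stood in a ratio of 78.0, the widest among the members with reads in every library. The deposited difference was 2.25, smaller than that of H2-Ab1 although the ratio of reads was larger, as the transform pulls genes with few reads more strongly towards their mean. Exon length, here and below, is that of all annotated exons of a gene merged, whichever transcript is expressed. Per kilobase of exon, H2-Ab1 exceeded H2-Aa by 29.3, 22.2 and 26.6 times in WT libraries and by 7.04, 9.0 and 8.29 times in Piezo1cKO libraries. The chains of I-A were thus less unequal at the RNA level in Piezo1cKO LSCs, and the ratios of the groups did not overlap.

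H2-Eb1 (chromosome 17, 34305867 to 34316674), the beta chain of the I-E molecule, had no read in any WT library, where a count of 0 allows up to 3 reads per library. In Piezo1cKO libraries it had 137, 161 and 130 reads, or 143, 157 and 132 after normalization. Against 3 reads per WT library this was at least 47.6-fold higher. All of its reads were thus in Piezo1cKO libraries, and the deposited difference was 0.93. H2-Ea, the alpha chain of I-E, which the b haplotype of C57BL/6 mice does not express, was listed at 0 in all 6 libraries, and H2-Eb2 had a mean under 1 read.

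Cd74 (chromosome 18, 60803848 to 60812652), the invariant chain, lies outside the class II region and differed by a factor close to that of H2-Ab1. It had 98.0, 123 and 113 normalized reads in WT and 2197, 2165 and 2192 in Piezo1cKO libraries. Its Piezo1cKO libraries were the most even of all members, with an SD of 0.786% of the mean where counting alone gives 2.15%. The ratio of the means, 111 ± 12.6 and 2185 ± 17.2 (SD, n = 3), was 19.6, and the deposited difference was 2.66.

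**Figure D1:**
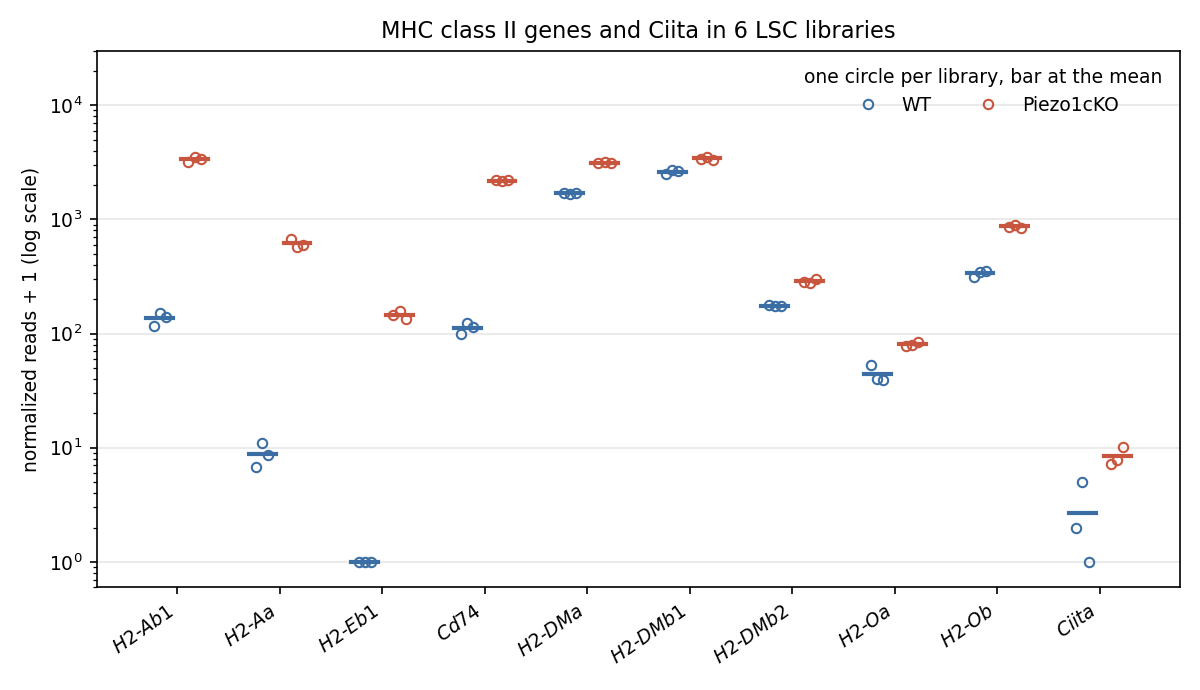
Normalized reads plus 1 (log scale) of the 10 genes, with a circle for each of the 3 WT and 3 Piezo1cKO libraries and a bar at the group mean. In every gene the Piezo1cKO circles lie above the WT circles, with the widest gaps in H2-Aa, where the means are 7.87 and 614, and in H2-Eb1, where WT is at 0. On the deposited values 33.5% of all genes tested were separated in this direction.

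The DM chains were already abundant in WT LSCs and were higher by smaller factors in Piezo1cKO LSCs. H2-DMa (chromosome 17, 34119541 to 34139101), the alpha chain of the peptide editor DM, had 1691, 1681 and 1710 normalized reads in WT and 3089, 3193 and 3149 in Piezo1cKO libraries, a ratio of 1.86. H2-DMb1 (chromosome 17, 34153072 to 34160230), a beta chain of DM, had 2498, 2691 and 2671 in WT and 3402, 3512 and 3332 in Piezo1cKO libraries, a ratio of 1.30 and the smallest of the 10. H2-DMb2 (chromosome 17, 34143307 to 34151555), the other beta chain, had 176, 173 and 175 in WT and 282, 275 and 301 in Piezo1cKO libraries, a ratio of 1.64. The deposited differences were 0.63, 0.27 and 0.33 in the same order. Every Piezo1cKO library lay above every WT library in the 3 genes, as in 33.5% of all genes tested on the deposited values.

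The alpha and beta chains of DM did not change by one factor. Reads of H2-DMa divided by those of H2-DMb1, without regard to length, gave 0.677, 0.625 and 0.640 in WT and 0.908, 0.909 and 0.945 in Piezo1cKO libraries, without overlap. H2-DMb1 and H2-DMb2 are near copies, and 22.7% of the 50-base windows of H2-DMb1 and 21.2% of those of H2-DMb2 occur in the other, so the split of reads between them is uncertain. H2-DMa also shares 10.4% of its exonic bases with Brd2 on the opposite strand. The library kit does not mark strand, so reads there cannot be assigned to either gene.

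DO, the partner that restrains DM, is typical of B cells and some dendritic cells. H2-Ob (chromosome 17, 34238903 to 34254414), its beta chain, had 313, 343 and 351 normalized reads in WT and 864, 895 and 840 in Piezo1cKO libraries. H2-Oa (chromosome 17, 34092340 to 34095234), its alpha chain, had 52.4, 39.4 and 38.5 in WT and 77.3, 79.0 and 83.4 in Piezo1cKO libraries. Both were higher in every Piezo1cKO library than in any WT library, as were 33.5% of all genes tested on the deposited values. H2-Ob had a ratio of 2.58 and H2-Oa of 1.84. H2-Oa shares 22.8% of its exonic bases with the antisense transcript BC051537, and the reads of the 2 cannot be told apart there.

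Ciita (chromosome 16, 10480059 to 10528418), the coactivator on which class II transcription depends, was nearly unread. It had 1, 4 and 0 reads in WT and 6, 7 and 9 in Piezo1cKO libraries. Summed over libraries these were 5 and 22 reads, a normalized ratio of 4.54 whose 95% exact interval, of counting error only, ran from 1.68 to 15.3. The lowest Piezo1cKO library held 2 reads more than the highest WT library, and the deposited difference was 0.04. Per kilobase of exon, Ciita stood at 0.175 ± 0.221 in WT and 0.778 ± 0.161 (SD, n = 3) in Piezo1cKO LSCs. Ciita is transcribed from several promoters with different first exons, which a count per gene does not resolve. Of its exonic bases 3.45% overlap Dexi on the opposite strand.

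The members were selected on this difference in these libraries, so the counts in this paragraph follow from the selection. They are given as description, and nothing is read from them. Counted together, 10 of the 10 members were higher at an adjusted p under 0.05 by limma on the deposited scale. Of all genes tested, 31.6% were higher and 31.4% lower. In 10 of 10, on the deposited values and on normalized reads, every Piezo1cKO library lay above every WT library. On the deposited values 33.5% of all genes tested were separated in this direction. The thresholds of a differentially expressed gene (DEG, adjusted p under 0.05 and an absolute log2 difference over 1) were passed by 3 members on the deposited scale, H2-Ab1, Cd74 and H2-Aa, where 0.257% of genes passed upwards. On recovered reads, fitted with limma-voom, 6 members passed (also H2-Eb1, H2-Ob and Ciita), against 12.7% of 17352 genes upwards and 12.2% downwards. The median deposited difference of the members was 0.73, and that of all genes tested was 0.001.

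**Figure D2:**
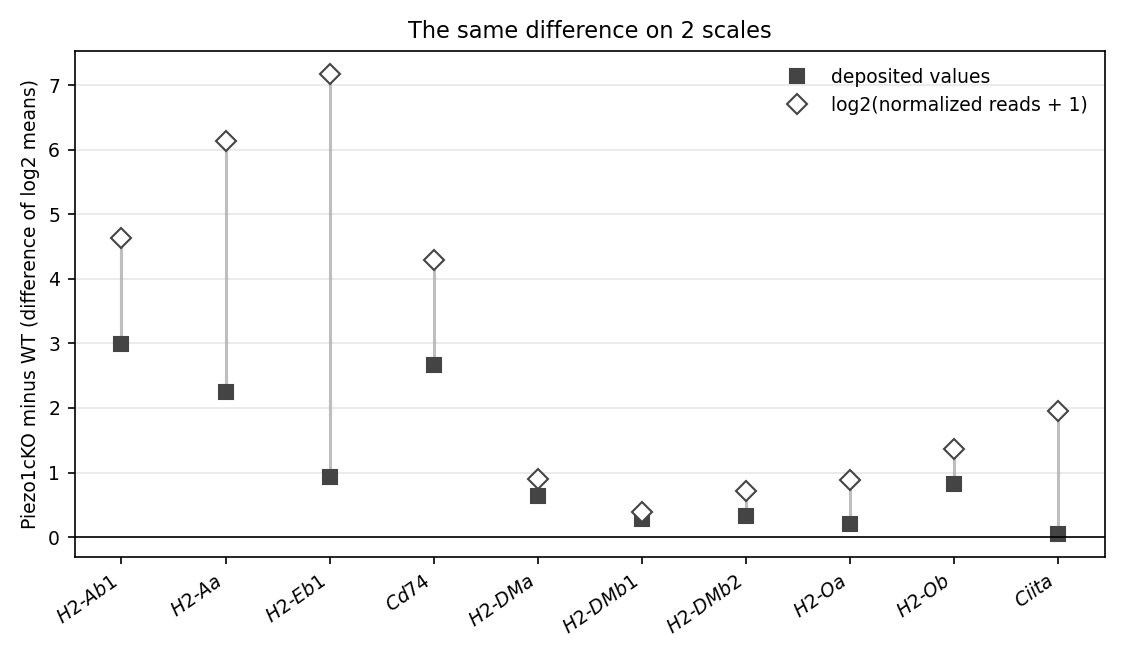
Difference between Piezo1cKO and WT means for each gene on the deposited log2 scale (squares) and as log2 of normalized reads plus 1 (open diamonds). The squares lie below the diamonds in all 10 genes, by most in H2-Eb1, at 0.93 against 7.18, and by least in H2-DMb1, at 0.27 against 0.38.

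Because the chains differed in factor, the make-up of class II RNA differed between the groups. The classical chains and Cd74 made up 4.43%, 5.46% and 4.97% of the normalized reads on the 10 genes in WT libraries and 44.5%, 44.5% and 44.9% in Piezo1cKO libraries. In WT LSCs nearly all reads of the system were thus on DM and DO. The classical chains and Cd74 summed to 254 ± 33.2 normalized reads in WT and 6289 ± 93.1 in Piezo1cKO LSCs (SD, n = 3). DM and DO summed to 4868 ± 120 and 7792 ± 140. Together the 10 genes stood at 331 to 351 CPM (recovered reads scaled to the library total) in WT and at 944 to 975 CPM in Piezo1cKO libraries.

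**Figure D3:**
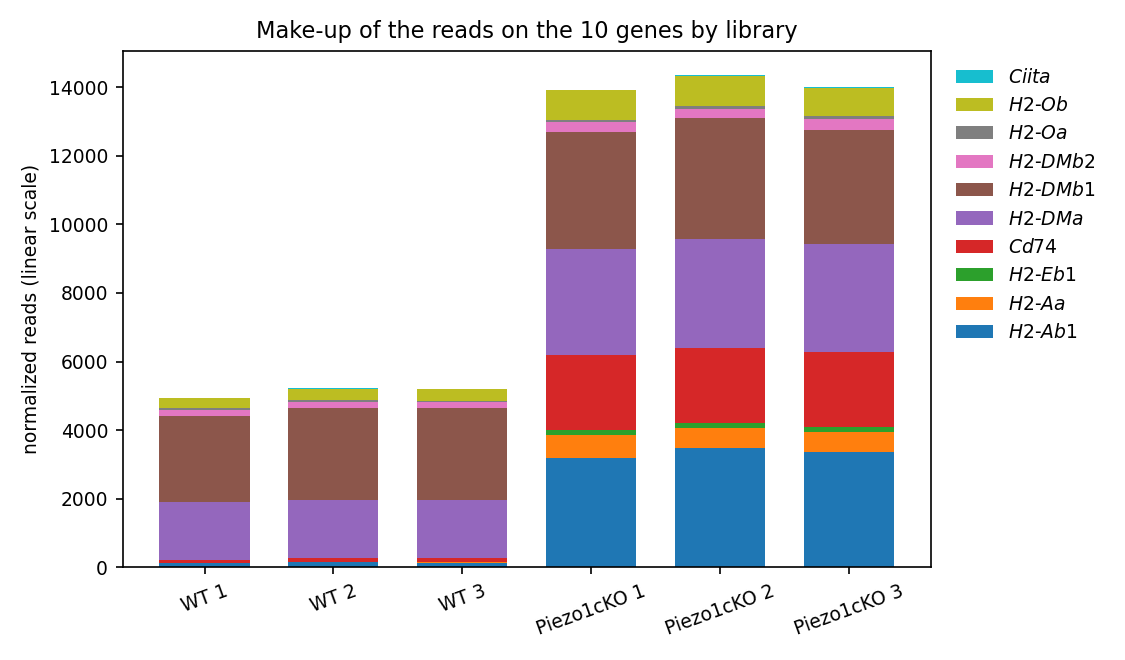
Normalized reads of the 10 genes stacked for each library on a linear axis. WT bars reach 4950 to 5216 and consist mostly of H2-DMb1 and H2-DMa, and Piezo1cKO bars reach 13919 to 14344, of which the 4 lowest segments, H2-Ab1, H2-Aa, H2-Eb1 and Cd74, hold 44.5% to 44.9%.

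Levels of different genes were compared as normalized reads per kilobase of exon, so their order depends on the annotated length. In WT LSCs the order ran from H2-DMb1 (1559 ± 63.3, SD, n = 3) and H2-DMa (491 ± 4.16) through H2-DMb2 (99.8 ± 0.934), Cd74 (66.2 ± 7.51), H2-Ob (62.4 ± 3.70), H2-Ab1 (52.6 ± 7.09) and H2-Oa (30.9 ± 5.54) to H2-Aa (2.07 ± 0.564), Ciita and H2-Eb1. Neighbours whose libraries overlapped were Cd74 with H2-Ob, H2-Ob with H2-Ab1, and Ciita with H2-Eb1. The DM chains led this order, and the chains of I-A stood apart from each other. In Piezo1cKO LSCs the order was H2-DMb1 (2032 ± 53.8), H2-Ab1 (1303 ± 58.7), Cd74 (1301 ± 10.2), H2-DMa (912 ± 15.2), H2-DMb2 (164 ± 7.79), H2-Aa (162 ± 13.1), H2-Ob (161 ± 5.07), H2-Eb1 (74.1 ± 6.36), H2-Oa (56.8 ± 2.26) and Ciita. Here H2-Ab1 overlapped with Cd74, H2-DMb2 with H2-Aa, and H2-Aa with H2-Ob. H2-Ab1 and Cd74, which lay below the DM chains in WT LSCs, stood above all but H2-DMb1 in Piezo1cKO LSCs.

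Placed among 25586 genes with values and a known exon length, the members spanned most of the range of expression. H2-DMb1 exceeded 98.0% of these genes per kilobase in WT and 98.6% in Piezo1cKO LSCs, and H2-DMa 92.4% and 96.0%. H2-Ab1 went from 70.7% to 97.4% and Cd74 from 73.2% to 97.4%. H2-Aa exceeded 39.8% of genes in WT and 82.9% in Piezo1cKO LSCs, and H2-Eb1 exceeded 74.6% in Piezo1cKO LSCs. Ciita stayed low in both, above 18.8% and 33.3% of genes.

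**Figure D4:**
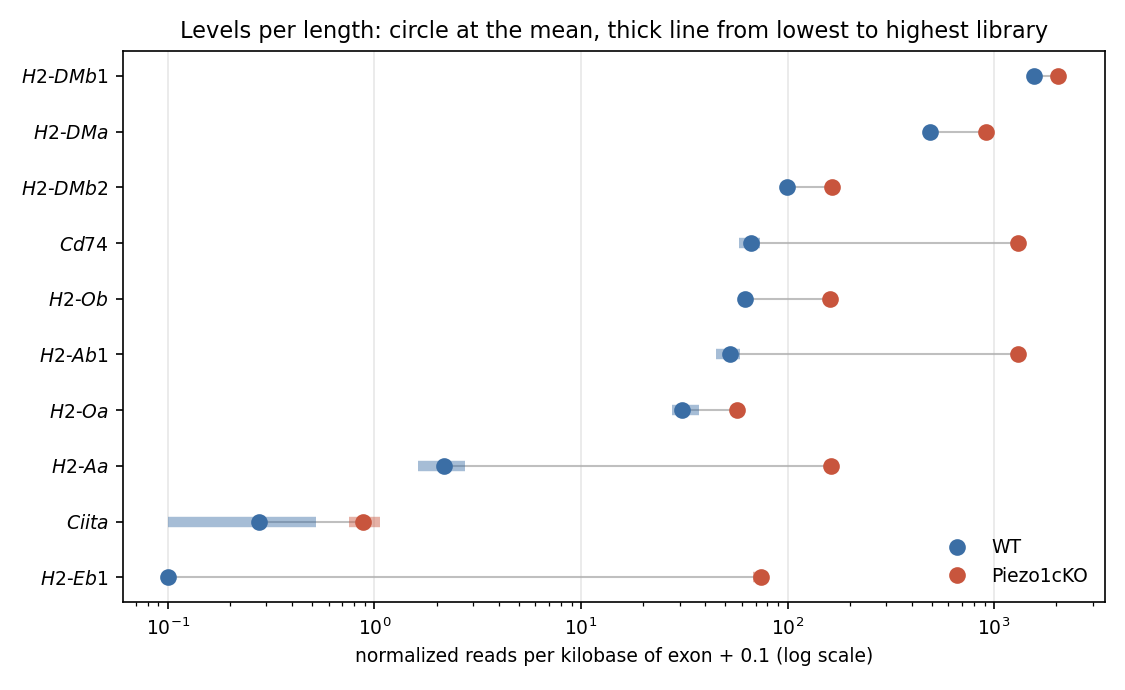
Normalized reads per kilobase of exon plus 0.1 (log scale) for the 10 genes, ordered by the WT mean, with a circle at the mean of each group and a thick line from its lowest to its highest library. H2-Ab1 and Cd74 move from 52.6 and 66.2 in WT to 1303 and 1301 in Piezo1cKO LSCs, next to H2-DMb1 at 2032, while Ciita stays under 1.

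Of the members, 8 lie in a stretch of 224 kb on chromosome 17 (34092340 to 34316674), from H2-Oa to H2-Eb1, which also holds 12 other annotated genes. Of these 12, 7 had values and 6 were tested, and 6 were higher in Piezo1cKO LSCs at an adjusted p under 0.05 (limma), where 31.6% of all genes tested were higher, by 0.05 to 0.52 on the deposited log2 scale. The smallest difference on that scale, which shrinks genes with few reads, was that of Gm15821, with no read in WT and 4, 8 and 6 reads in Piezo1cKO libraries. Against 3 reads per WT library it was at least 1.99-fold higher, and by ratio of reads Brd2 was the smallest (1.14). The peptide transporters Tap1 and Tap2, which serve MHC class I, were higher by 0.52 each (adjusted p = 2.31e-09 and 3.35e-11, limma). The immunoproteasome subunits Psmb9 and Psmb8 were higher by 0.31 and 0.29, and the chromatin reader Brd2 by 0.14. In normalized reads these neighbours went from 1118 ± 76.5 to 1892 ± 145 for Tap1 and from 1706 ± 46.6 to 2856 ± 126 (SD, n = 3) for Tap2. Their ratios of 1.69 and 1.67 lay within the range of the DM and DO genes, 1.30 to 2.58, and not near those of H2-Ab1 or H2-Aa.

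The other genes of the pathway were taken from 6 lists of 43 genes by role, of which 39 were tested. At an adjusted p under 0.05 (limma), 14 were higher and 16 lower in Piezo1cKO LSCs, with differences from -0.36 to 0.62 and a median of -0.05, where 31.6% of all genes tested were higher and 31.4% lower. On recovered reads (limma-voom) 3 were DEGs upwards and 5 downwards. These shares lie near those of all genes, and nothing is read from them for the pathway as a whole.

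In the complex on the class II promoter, 1 of 7 genes was higher and 3 were lower. Creb1 was higher (0.20, adjusted p = 0.000433, limma), and Rfxap, Nfyb and Nfya were lower (-0.24, -0.21 and -0.19). Rfxap, the subunit of the RFX complex whose loss in humans causes a bare lymphocyte syndrome without class II, had 34.0, 23.2 and 37.5 normalized reads in WT and no read in any of the 3 Piezo1cKO libraries. With 3 reads per library as the limit, it was at least 10.1-fold lower (adjusted p = 4.4e-07, limma on deposited values). Rfx5 (-0.08, adjusted p = 0.0531), Rfxank (-0.06, adjusted p = 0.221) and Nfyc, the member with the highest level per length (-0.07, adjusted p = 0.106), did not pass in the fit of all 6 libraries. Without WT replicate 2 Rfx5 passed (adjusted p = 0.0423, limma), and without WT replicate 3 Nfyc did (adjusted p = 0.046).

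Among 5 coactivators and chromatin partners of CIITA, Crebbp (0.18) and Carm1 (0.14) were higher and Kat2b was lower (-0.17). These are histone acetyltransferases and, in Carm1, an arginine methyltransferase. Ep300 (0.08, adjusted p = 0.0616, limma) did not pass, but did without WT replicate 3 (adjusted p = 0.0273), with each library centred on its median (0.0177), on library totals (0.0349) and when genes under a mean of 50 reads were dropped (0.0468). Smarca4, the ATPase of the BAF remodeller and the highest of the list per length, had 285 normalized reads per kilobase in both groups.

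Of 13 regulators of Ciita transcription, 10 were tested, 5 higher and 5 lower, with a median of -0.01. Higher were the interferon gamma receptor chain Ifngr1 (0.21), the kinase Jak1 (0.09) and the transcription factors Irf1 (0.23), Irf8 (0.22) and Usf1 (0.31). Among the lower genes were Ifngr2 (-0.13), Jak2 (-0.36), the myeloid factor Spi1 (-0.26) and Socs1 (-0.20), an inhibitor of JAK kinases. The arms of the interferon gamma pathway thus did not move together. Ifng, the cytokine itself, was listed at 0, and Irf4 had a mean under 1 read. The call of Jak1 was lost without WT replicate 3 (adjusted p = 0.051, limma).

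Of 9 endosomal enzymes, 4 were higher and 3 lower. Ctss, the cathepsin that trims the invariant chain in antigen-presenting cells, had 698, 638 and 655 normalized reads in WT and 1267, 1265 and 1328 in Piezo1cKO libraries. Its deposited difference of 0.62 (adjusted p = 1.17e-11, limma) was the largest of all pathway genes on that scale, which shrinks genes with few reads. Among the higher pathway genes its ratio of reads, 1.94, lay below those of Ifi30 (2.1), Marchf1 (6.06) and Lag3 (at least 8.25). Ifi30, the thiol reductase GILT, rose by 0.38 from 81.7 ± 7.57 to 171 ± 16.5 normalized reads (SD, n = 3). Lgmn (0.11) and Ctsd (0.10) were also higher. Ctsl, the cathepsin with the same task in thymic epithelium, was lower (-0.25), as were Ctsh (-0.08) and Ctsb (-0.07), whereas Ctsz, the highest per length, did not pass in the fit of all libraries (0.04, adjusted p = 0.107) but did without WT replicate 2 (0.0432), with median-centring (0.0148) and on library totals (0.0386). Lgmn lost its call without WT replicate 1, WT replicate 3 or Piezo1cKO replicate 2 (adjusted p = 0.0615, 0.0636 and 0.104, limma).

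The genes of surface turnover moved in opposite directions. Marchf1, the ubiquitin ligase that removes class II from the surface, rose from 12.7 ± 2.53 to 77.2 ± 2.08 normalized reads (SD, n = 3), a ratio of 6.06 (deposited difference 0.41, adjusted p = 3.92e-09, limma). Cd83, which opposes that ligase, fell from 71.1 ± 14.3 to 26.3 ± 4.69 normalized reads (-0.27, adjusted p = 1.36e-05). Marchf8, a related ligase, did not pass (-0.05, adjusted p = 0.215).

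Of 4 costimulatory molecules, 3 were lower. Cd86 (-0.07), Cd40 (-0.11) and Icosl (-0.13) were lower on the deposited scale, which shrinks genes with few reads. By mean normalized reads they were 6.38-fold, 2.97-fold and 1.22-fold lower in the same order. Cd80 did not pass in the fit of all libraries (0.08, adjusted p = 0.0559, limma), though it did without WT replicate 3 or Piezo1cKO replicate 1 (adjusted p = 0.0433 and 0.0166) or with median-centring (0.0137). Cd86 had 12, 10 and 10 reads in WT and 0, 4 and 1 in Piezo1cKO libraries. Icosl lost its call without Piezo1cKO replicate 3 (adjusted p = 0.0577). Of the receptors that bind class II, Lag3 had 0, 1 and 0 reads in WT and 24, 24 and 26 in Piezo1cKO libraries (0.19, adjusted p = 4.6e-07), and Cd4 had a mean under 1 read.

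**Figure D5:**
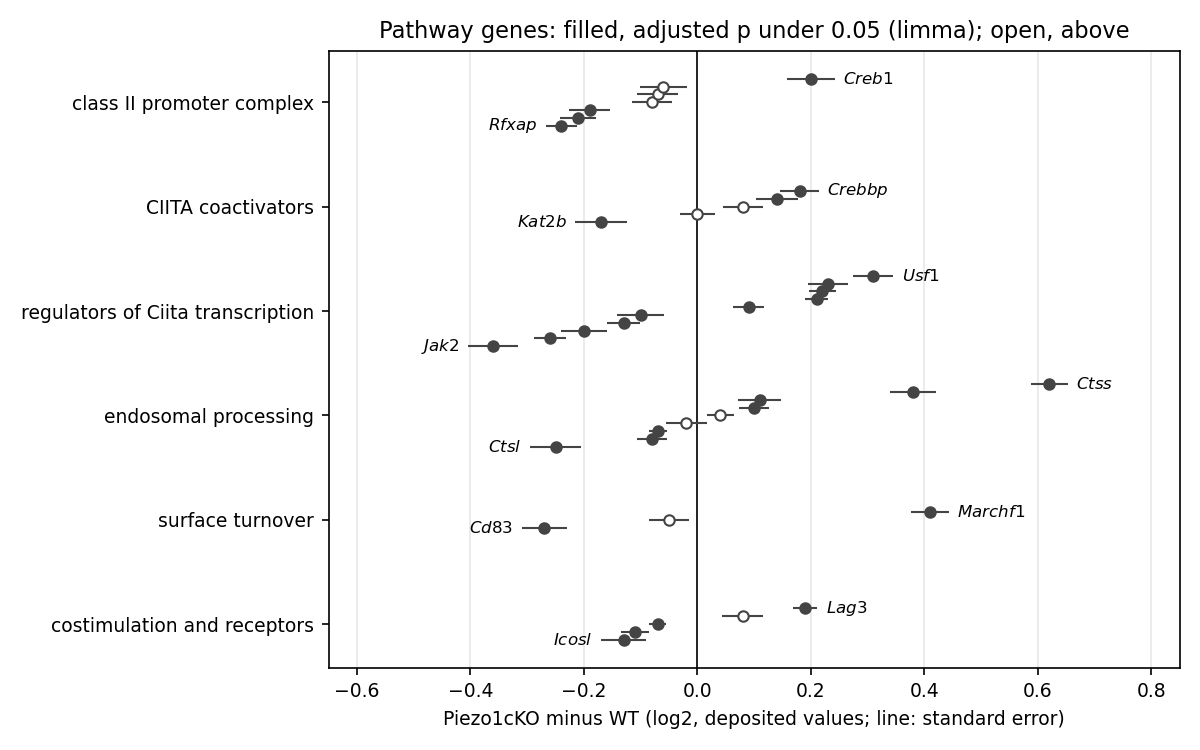
Difference between Piezo1cKO and WT LSCs on the deposited log2 scale for the 39 pathway genes tested, by list, with the standard error as a line and filled circles for an adjusted p under 0.05 (limma). The differences run from -0.36 in Jak2 to 0.62 in Ctss, and each of the 6 lists holds genes on both sides of 0.

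Markers of cells that normally carry class II were measured in the same libraries, and their part in the members' difference was not tested. At an adjusted p under 0.05 (limma), 31.6% of all genes tested were higher in Piezo1cKO LSCs and 31.4% lower. The marker lists were chosen with earlier results of these data known, so nothing is read from counts of called markers. Of 9 conventional dendritic cell genes, 8 were tested, with 6 higher and 2 lower, and their summed level was 946 to 992 normalized reads in WT and 1963 to 2018 in Piezo1cKO libraries. Their most abundant gene, Flt3, which progenitors also carry, went from 648 ± 23.9 to 1606 ± 43.2 (SD, n = 3). The defining markers did not move as 1: Xcr1 rose from 17.6 ± 4.84 to 61.1 ± 11, Clec9a had 2, 3 and 1 reads against 8, 24 and 14, Itgax had 0 reads in WT and 4, 6 and 2 in Piezo1cKO libraries, and Zbtb46 fell from 181 ± 5.78 to 74.6 ± 9.65 normalized reads. Ccr7, a marker of mature dendritic cells, had 28, 26 and 29 reads in WT and none in Piezo1cKO libraries. Of 7 plasmacytoid genes, 5 were tested and 5 were higher, with sums of 1546 to 1677 and 2692 to 2838, mostly from Tcf4 and Bst2, while the defining Siglech and Ccr9 went from 0.336 ± 0.583 to 7.79 ± 1.73 and from 11.8 ± 3.92 to 25.5 ± 7.95 normalized reads. None of these defining markers was at 0 in all libraries.

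Of the defining B cell markers, Ms4a1 and Pax5 had a mean under 1 read, where reads are not resolved to whole numbers. Cd79a had 8, 6 and 7 reads in WT and 17, 14 and 10 in Piezo1cKO libraries. Of the 9 genes 5 were tested, and 4 were higher while Igkc did not pass (adjusted p = 0.244, limma), where 31.6% of all genes tested were higher. The sum of 12227 to 12593 normalized reads in WT and 22364 to 22747 in Piezo1cKO libraries came almost wholly from Ighm and Cd79b. Of 10 macrophage genes 6 were tested, of which 4 were higher, and the list summed to 1920 to 2094 and 2076 to 2140. Their defining markers were C1qa, at 0 in all libraries, C1qb with 0, 2 and 0 reads against 6, 17 and 10, C1qc with 0 reads in WT and 21, 29 and 15 in Piezo1cKO libraries, and Adgre1, with a difference of 0.02 (adjusted p = 0.647, limma). Adgre1 and Csf1r, which did not pass, held most of the reads of this list. Cd163 rose from 20.9 ± 4.44 to 111 ± 9.87 normalized reads (SD, n = 3; adjusted p = 9.83e-10, limma), and Mrc1 had no read in WT and 8, 7 and 17 in Piezo1cKO libraries (adjusted p = 0.000526).

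Markers of cells that do not typically carry class II moved as well, where 31.6% of all genes tested were higher and 31.4% lower. Of 8 mast cell and basophil genes 8 were tested and 7 were higher, and their sum of 2794 to 2943 normalized reads in WT and 11407 to 11630 in Piezo1cKO libraries was mostly Cpa3, Hdc and Gata2. The defining Ms4a2 rose from 19.9 ± 1.55 to 73.0 ± 8.13 and Mcpt8 from 99.6 ± 5.16 to 201 ± 13.1, and Fcer1a had 9.23 ± 5.31 and 14.8 ± 3.26 (SD, n = 3) without passing (adjusted p = 0.149, limma). Of 7 T and NK cell genes 4 were tested, 2 higher and 2 lower, with sums of 3998 to 4182 and 2488 to 2536 that were nearly all Nkg7. The higher genes were Klrb1c, with no read in WT and 32, 38 and 52 in Piezo1cKO libraries (at least 13.6-fold, adjusted p = 1.02e-07, limma), and Trac, with 2.93 ± 1.66 and 15.5 ± 2.27 normalized reads (SD, n = 3; adjusted p = 0.000351). Of the defining markers, Cd3e had a mean under 1 read, Cd3g had at most 3 reads in any library, and Cd3d had 7, 5 and 4 reads in WT and 0, 2 and 0 in Piezo1cKO libraries.

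The genes most like the members were sought among 8285 other genes with a mean of at least 10 CPM. Likeness was the Euclidean distance between log2(normalized reads + 1) profiles over the 6 libraries, each relative to the WT mean, from the mean profile of H2-Ab1, H2-Aa and Cd74, whose own distances to that mean were 0.692, 1.95 and 1.27. The nearest was Ndufa12-ps at 0.999, with 17.5, 9.08 and 11.5 normalized reads in WT and 492, 486 and 457 in Piezo1cKO libraries, a pseudogene whose reads may be shared with its parent. It was followed by the neutrophil collagenase Mmp8 (2.0), fibronectin Fn1 (2.67), the neuropeptide Npy (2.68) and the lipoxygenase Alox5 (3.01). These genes were picked for their profile, so the distances are a description, and only the pseudogene lay nearer to the mean profile than Cd74 did.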

How the data were processed

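RNA-seq of 3 WT and 3 Piezo1cKO LSC libraries was analysed. Per the labels and methods, the authors used fastp 0.20.1 for trimming, HISAT2 2.2.1 for mapping to GRCm38, featureCounts 2.0.1 for counting on genes and DESeq2 1.28.1 for normalization. The deposited values are on a log2 scale with the form of a regularized log, a transform not named in the sources used here. Values ran from -1.97 to 18.06, and 28965 genes were at 0 throughout. No per-sample column was left out.

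Genes with a mean of at least 1 entered limma 3.58.1 in R 4.3.3 (lmFit, then eBayes with trend = TRUE), with no covariate and Benjamini-Hochberg adjustment. The transform was undone by choosing size factors, shrinkage and weights that gave whole reads. Of values with a mean of at least 1 read, 90.8% lay within 0.1 of a whole number, against 22.1% with the shrinkage 10% off, and were rounded. Genes under 1 read did not come out whole (26.4%). Genes with 10 or more reads over all libraries entered limma-voom. Both steps were tested on simulated data. Squared differences between libraries of a group were 1.58 to 3.30 times counting noise, more than re-reading 1 library would give, which does not settle whether libraries share RNA or an animal.

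Coordinates and exon lengths came from GENCODE M21 and promoters from RefSeq (GRCm38.p6), matched by symbol. The members and lists were chosen with earlier results of these data known. Genes named were the members and Piezo1, up to 5 called genes with the largest difference and the highest and lowest level of each pathway list, defining and up to 3 most abundant markers, up to 5 neighbours, and 5 genes of like profile. Names behind counts of 5 or fewer, H2-Ea, H2-Eb2, Ccr7, Gm15821, Cd163, Mrc1 and genes whose call depended on 1 library were added after their values were seen. Values of a few genes of these lists are not reported here. Alternatives were other filters, scalings, thresholds and pseudocounts, a replicate block and each library left out. Other steps ran in Python 3.11.15 (numpy 2.4.6, scipy 1.17.1, pandas 2.3.3, matplotlib 3.10.9).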

Additional observations from a re-analysis of the deposited data

How the results depend on the processing

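All 10 members kept their direction in all 100 combinations of member and alternative. The median difference of the members, 0.73 on the deposited scale, was 1.66 as log2 of normalized recovered reads with a pseudocount of 1, 1.88 with a pseudocount of 0.5 and 1.68 on library totals, since the deposited transform shrinks differences. It lay between 0.71 and 0.74 with each library left out in turn. The count of genes called at an adjusted p under 0.05 (limma), 10556, lay between 9596 and 10121 with each library left out, and was 137 on the deposited scale with an absolute log2 difference over 1, and 4322 with that threshold on recovered reads (limma-voom), an alternative chosen after seeing the data. Of the pathway genes 30 were called, 28 to 31 with each library left out. With the difference over 1 they were 0 on the deposited scale, also at an unadjusted p, where 33 passed without it, and 8 on recovered reads. Leaving out 1 library changed the call or direction of 10 pathway genes, 4 of them called in the full fit, among them Jak1, Lgmn and Icosl.

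Samples of the same number correlated in their deviations from the group means by 0.195, 0.161 and 0.07, each best with its own number, a hint from the data and not from the design, so the numbers were not taken to pair them. With a replicate block 11055 genes and 35 pathway genes were called, the 5 further ones being Rfx5 (adjusted p = 0.0428, limma) and Nfyc (0.0394), both lower, and Ep300 (0.028), Ctsz (0.000912) and Cd80 (0.0319), all higher, so that the promoter complex had 5 lower genes in place of 3. Depth limits Ciita, H2-Eb1 and H2-Aa in WT LSCs, which rest on at most 10 reads per library.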
